A study of Mus musculus with 36 samples.

Results

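The insulin signalling and feeding response genes described here are *Insr*, *Irs1*, *Irs2*, *Pik3r1*, *Akt2*, *Foxo1*, *Foxo3*, *Trib3*, *Insig2* and *Mlxipl*. These 10 genes were found by their exact symbols among the 54532 genes of a count table from mouse liver, and all 10 were among the 17994 genes that reached a summed count of 100 and entered the tests. The livers came from adult male mice aged 2 to 3 months on a C57Bl/6NCrl background, fed chow without restriction and kept in 12 h light and 12 h dark. Control mice (THRB+/-, here THRBWT) carried a single copy of the B6.129S1-Thrbtm1Df/J allele, and knockout mice (THRB-/-, here THRBKO) carried the allele on both chromosomes, so the controls were not free of it and the loss was not limited to hepatocytes. RNA was sequenced from 3 mice per genotype every 4 h from ZT2 to ZT22, where zeitgeber time (ZT) counts hours since the lights came on, which gave 18 libraries per genotype and 36 in all. The comparisons ask whether these genes differ between genotypes, whether they change over the day in each genotype, and whether the daily change differs between genotypes.

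As background, insulin binds its receptor, which phosphorylates the adaptor proteins IRS1 and IRS2. These recruit phosphoinositide 3-kinase and activate AKT, which keeps the FOXO transcription factors out of the nucleus and thereby lowers the transcription of fasting genes. Feeding also acts through the SREBP pathway, which INSIG proteins hold back, and through the glucose-responsive factor ChREBP, encoded by *Mlxipl*. Mice eat mostly in the dark phase, so in liver these pathways follow the daily rhythm of food intake as well as the circadian clock.

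Libraries held from 29063270 to 42530550 counts assigned to genes, so that each member except *Trib3* and *Irs1* had at least 200 counts in every library. *Trib3* had from 50 to 1154 counts and *Irs1* from 74 to 274. The targeted gene *Thrb* was at 28.9 ± 3.69 CPM (counts scaled by library size and TMM factor; SD, n = 18) in THRBWT and 31.5 ± 2.70 CPM (SD, n = 18) in THRBKO livers, and counts summed over the gene do not show which allele a read came from, so this level was no check of the labels. The summed level of 8 hepatocyte markers had a median of 90210 CPM in THRBWT and 90997 CPM in THRBKO livers. None of the tested genes in 9 lists of cell type markers passed the test for genotype, although macrophage markers summed to as much as 555 CPM in a THRBWT library against at most 334 CPM in THRBKO, and *Ins1* and *Ins2*, the insulin genes of pancreatic islets, were at 0 in all libraries. In bulk tissue, fewer cells of a type and less RNA per cell cannot be told apart.

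Per kilobase of exon, the members spanned levels from *Irs1*, at 0.45 ± 0.13 CPM per kb in THRBWT (SD, n = 18), to *Mlxipl*, at 102 ± 12.1 CPM per kb. *Insig2* was second at 51.1 ± 29.5 CPM per kb, followed by *Akt2* at 15.1 ± 0.925 CPM per kb. *Insr* (6.61 ± 0.799), *Pik3r1* (6.41 ± 1.26) and *Foxo3* (5.51 ± 1.43) had overlapping ranges of 1 SD around the mean on that scale, and so did *Trib3* (3.84 ± 4.30), *Foxo1* (3.01 ± 0.717) and *Irs2* (2.61 ± 1.36). In THRBKO livers the order was the same except that *Foxo1*, at 3.40 CPM per kb, and *Trib3*, at 3.39 CPM per kb, changed places.

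More of these genes passed the tests for time of day than the test for genotype. Sampling time passed the test (edgeR's quasi-likelihood F test with Benjamini-Hochberg adjustment, adjusted p under 0.05) for 6 of 10 members in THRBWT livers, namely *Insr*, *Pik3r1*, *Foxo1*, *Foxo3*, *Trib3* and *Insig2*, where 26.4% of all tested genes passed. In THRBKO livers it passed for 5 of 10, the same genes without *Pik3r1*, against 24.9% of all tested genes. A 24-h sine curve passed for 8 of 10 members in THRBWT livers, all but *Irs1* and *Mlxipl*, where 35.1% of tested genes passed, and for 5 of 10 in THRBKO livers, where 31.5% passed. Without the mice of replicate letter b or c, the curve passed for 5 members in THRBWT livers. The *Irs2* call (adjusted p = 0.0442) was lost in both of these cases and with edgeR's robust estimation, and that of *Pik3r1* was lost without letter a or b. Sampling time passed for 5 members in each genotype whichever letter was left out, with *Pik3r1* lost in THRBWT without a or b, *Insr* lost in THRBWT without c and in THRBKO without a, and *Irs2* gained in THRBKO without a. With sampling time in the model, 1 of 10 members differed between genotypes, *Foxo1*, where 0.95% of all tested genes did.

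**Figure D1:**
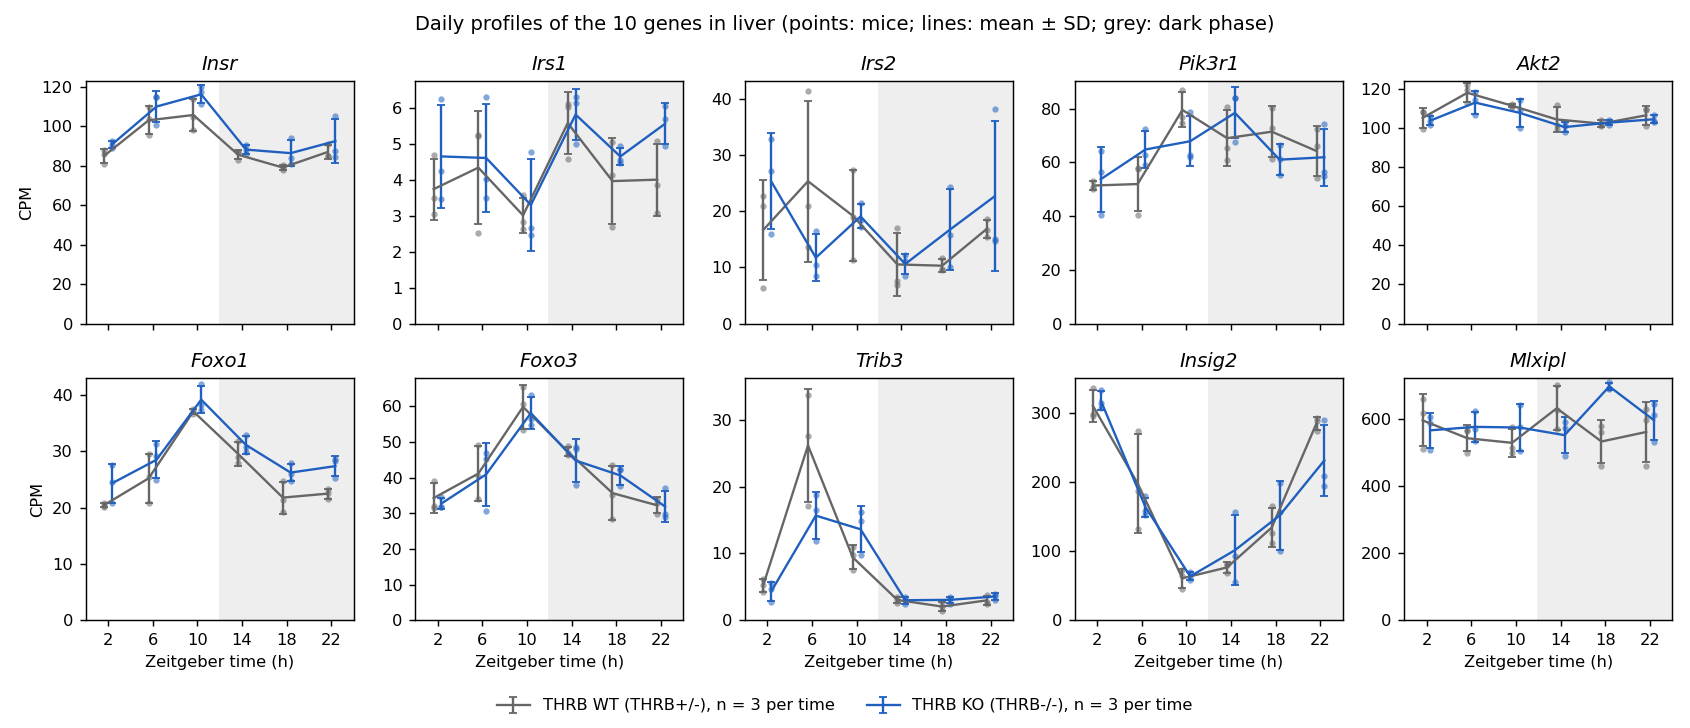
Level of each of the 10 genes in CPM (vertical axes, starting at 0) against zeitgeber time in hours, with 1 point per mouse, lines through the means and bars of 1 SD for THRBWT (grey) and THRBKO (blue) livers, 3 mice per genotype and time; the shaded area is the dark phase. *Trib3* peaks at ZT6, at 26.1 CPM in THRBWT and 15.7 CPM in THRBKO livers, *Insig2* is highest at ZT2 and lowest at ZT10 in both genotypes, and *Foxo1* and *Foxo3* are highest at ZT10.

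*Insr*, the insulin receptor (chromosome 8, 3122061 to 3279617, minus strand, GRCm38), had a higher mean over the 3 light times than over the 3 dark times in both genotypes, with its highest means at ZT6 and ZT10. In THRBWT livers the 3 mice had 98.3, 105 and 114 CPM at ZT10, the highest time, and 78.0, 78.8 and 80.5 CPM at ZT18, the lowest. In THRBKO livers they had 111, 118 and 120 CPM at ZT10 and 81.1, 84.2 and 93.9 CPM at ZT18. The highest and lowest times did not overlap in either genotype, which was also so for 63.1% of tested genes in THRBWT and 66.1% in THRBKO livers. The mean over ZT14, ZT18 and ZT22 was below that over ZT2, ZT6 and ZT10 by a log2 difference of -0.22 in THRBWT (standard error 0.045, adjusted p = 7.1e-04) and of -0.24 in THRBKO livers (standard error 0.045, adjusted p = 3.3e-04). *Insr* was also higher in the mean of THRBKO livers at 6 of 6 sampling times, as were 3.94% of tested genes. Its log2 fold change for genotype was 0.10 (standard error 0.030), but this did not pass the threshold (unadjusted p = 0.00242, adjusted p = 0.116). At ZT2 all 3 THRBKO mice, at 89.0 to 92.5 CPM, lay above all 3 THRBWT mice, at 80.8 to 88.1 CPM, and the same was seen at ZT18. Groups of 3 against 3 without overlap were found for 12.9% of tested genes at ZT2 and 10.4% at ZT18.

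The adaptors differed in level and in how much mice varied. *Irs1* was scarce, with a lowest, median and highest value of 2.53, 4.00 and 6.12 CPM in THRBWT and of 2.48, 4.86 and 6.32 CPM in THRBKO livers, and these ranges overlapped almost fully. Its log2 fold change for genotype of 0.22 (standard error 0.110, adjusted p = 0.431) did not pass. The *Irs1* mean was higher in THRBKO livers at 6 of 6 times, as for 3.94% of tested genes. Its highest mean was at ZT14 in both genotypes without passing the test for sampling time. *Irs2*, the adaptor whose transcript is known to rise with fasting, ranged from 6.39 to 41.4 CPM in THRBWT and from 8.41 to 38.2 CPM in THRBKO livers. At ZT6 the 3 THRBWT mice had 13.7, 21.0 and 41.4 CPM and the 3 THRBKO mice had 8.41, 10.4 and 16.4 CPM, so the groups overlapped. The log2 fold change for genotype at ZT6 was -1.11 and did not pass edgeR's test (standard error 0.444, unadjusted p = 0.0179, adjusted p = 0.9996). *Irs2* was lower in the dark in THRBWT livers, by a log2 difference of -0.72 (standard error 0.256, adjusted p = 0.0434), and that call was lost in 13 of the 18 fits that each left out a single THRBWT mouse, and without the mice of letter b or c. In THRBKO livers the difference was -0.16 (standard error 0.254, adjusted p = 0.725). The test of the change in that difference between genotypes gave 0.55 (standard error 0.360, unadjusted p = 0.136), so no difference between the genotypes was shown.

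The window upstream of *Irs2* is shown because it carries an exact E-box, the hexamer bound by the CLOCK and BMAL1 proteins. The 250 bases before the RefSeq start (GRCm38.p6, chr8:11008930-11009179, minus strand) read as follows, with the E-box CACGTG in capitals at position -44 from the start.
Irs2: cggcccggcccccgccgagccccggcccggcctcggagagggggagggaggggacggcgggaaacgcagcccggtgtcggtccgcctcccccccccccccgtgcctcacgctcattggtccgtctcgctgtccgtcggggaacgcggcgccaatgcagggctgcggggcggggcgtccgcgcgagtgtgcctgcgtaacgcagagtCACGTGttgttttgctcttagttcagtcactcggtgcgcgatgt
An exact CACGTG, which reads the same on both strands, also lay at -115 of *Irs1* and at -98 of the second *Mlxipl* start. Of all 32851 RefSeq windows from 250 bases before to 50 after a start, 7.15% held the motif. Windows were found for 9 of the 10 members, the exception being *Insr*, and these 9 had 16 windows. *Irs1* and *Mlxipl* did not pass the test for a 24-h rhythm in either genotype. *Irs2* passed it in THRBWT livers only, and that call was lost without letter b or c.

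*Pik3r1*, which encodes the regulatory subunit p85 alpha of phosphoinositide 3-kinase, reached 74.8, 76.8 and 86.9 CPM at ZT10 in THRBWT livers and was lowest at ZT2, at 49.96, 50.9 and 53.2 CPM. In THRBKO livers the highest mean was at ZT14, with 67.4, 83.9 and 83.9 CPM, and the lowest at ZT2, with 40.5, 56.4 and 64.2 CPM. Neither pair of times overlapped, as for 63.1% of tested genes in THRBWT and 66.1% in THRBKO livers, but the THRBKO mice were more spread at ZT2, and sampling time passed the test in THRBWT (adjusted p = 0.0111) and not in THRBKO livers (adjusted p = 0.131). The THRBWT call was lost without the mice of letter a or b. The genotype effect that varies with sampling time did not pass for *Pik3r1* (unadjusted p = 0.12). At ZT6 its 3 THRBKO mice lay above the 3 THRBWT mice, as for 8.41% of tested genes in either direction. *Akt2*, the AKT kinase that carries most metabolic actions of insulin, was the steadiest member: its lowest and highest values were 99.5 and 122 CPM in THRBWT and 97.8 and 118 CPM in THRBKO livers. Its 24-h rhythm in THRBWT had an amplitude of 0.08 on the log2 scale (adjusted p = 0.0334). That call was lost whichever replicate letter was left out, and also without a filter on low counts. Sampling time did not pass the test for *Akt2* in THRBWT livers (adjusted p = 0.0827). The log2 fold change of *Akt2* between genotypes was -0.03 (standard error 0.023, 95% confidence interval -0.08 to 0.01, adjusted p = 0.602).

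*Foxo1* and *Foxo3*, transcription factors that AKT inactivates and that drive gluconeogenic genes in fasting, both rose towards the end of the light phase. *Foxo1* had 36.7, 37.1 and 37.5 CPM at ZT10 in THRBWT livers and 20.2, 20.3 and 20.9 CPM at ZT2. In THRBKO livers it had 37.4, 38.2 and 41.9 CPM at ZT10 and 20.8, 24.6 and 27.6 CPM at ZT2. *Foxo3* had 53.3, 60.8 and 65.5 CPM at ZT10 and 29.8, 32.8 and 34.1 CPM at ZT22 in THRBWT livers, and it ran from 54.8 to 63.1 CPM and from 28.9 to 37.0 CPM at the same times in THRBKO livers. All 4 of these contrasts of times were free of overlap, as were the highest and lowest times of 63.1% of tested genes in THRBWT and 66.1% in THRBKO livers.

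*Foxo1* passed the test for genotype and *Foxo3* did not. *Foxo1* was 13.9% higher in THRBKO livers, with a log2 fold change that edgeR put at 0.19 ± 0.043 (standard error; adjusted p = 0.0215), where 0.506% of all tested genes were called higher. Its mean was higher in THRBKO livers at 6 of 6 times, as for 3.94% of tested genes, yet the mice of the genotypes overlapped at 5 of these times. They did not at ZT22, where THRBWT mice had 21.6, 22.7 and 23.3 CPM and THRBKO mice 25.3, 28.2 and 28.6 CPM, and 9.94% of tested genes were without overlap there. At ZT10 and ZT14, where 7.95% and 10.2% of tested genes were without overlap, none of the 10 members was. The call held in all 36 fits that left out a single mouse (log2 fold change 0.17 to 0.21, adjusted p 0.00729 to 0.0405) and in DESeq2's likelihood ratio test (adjusted p = 0.00577). It was lost when sampling time was left out of the model (0.17, adjusted p = 0.75) and when the 12 mice of any replicate letter were left out (0.18 to 0.19, adjusted p 0.123 to 0.23). For *Foxo3* the log2 fold change was -0.00405 (standard error 0.058, 95% confidence interval -0.12 to 0.12).

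The sequence before the *Foxo1* start (GRCm38.p6, chr3:52268087-52268336, plus strand) is shown as that of the member that passed the test for genotype. It has no capitals because neither AGGTCA, the hexamer bound by nuclear receptors, nor any of the other 5 motifs searched was found in its window, on either strand.
Foxo1: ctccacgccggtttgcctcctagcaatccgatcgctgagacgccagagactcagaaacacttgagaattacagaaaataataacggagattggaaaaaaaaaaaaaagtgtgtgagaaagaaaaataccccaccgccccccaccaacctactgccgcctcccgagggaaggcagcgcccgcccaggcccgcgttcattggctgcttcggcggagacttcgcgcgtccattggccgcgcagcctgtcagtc
AGGTCA was absent from all 16 windows of the members and present in 16.26% of all RefSeq windows. The other motifs were the D-box TTATGTAA (0.94% of all windows), the FOXO site GTAAACA (3.65%), the ATF4-CHOP site TGATGCAA (0.89%) and the cAMP response element TGACGTCA (1.79%). No match says only that these letters are not in the window.

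**Figure D2:**
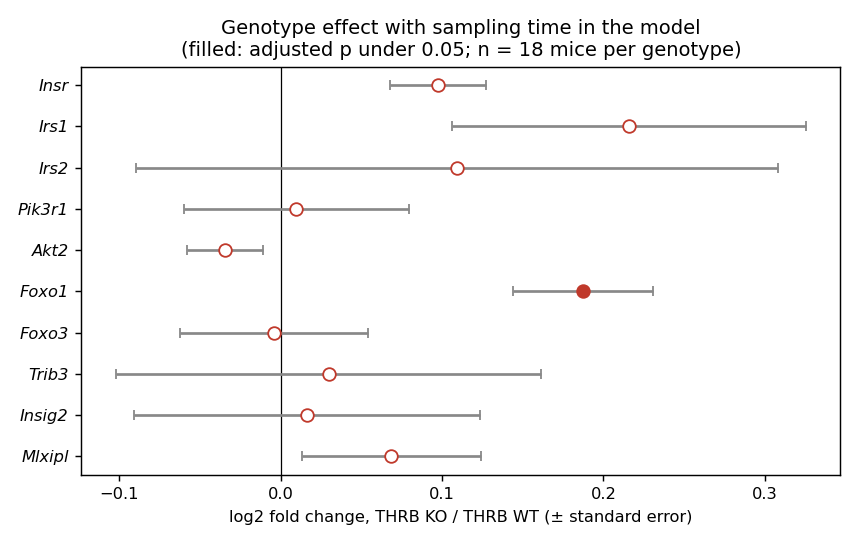
Log2 fold change of each gene in THRBKO relative to THRBWT livers (horizontal axis) with sampling time in the model; points are estimates from 18 mice per genotype, bars are 1 standard error, and the filled point is the gene with an adjusted p under 0.05. *Foxo1* at 0.19 is past the threshold, *Irs1* has a similar estimate of 0.22 with a wider error, and *Pik3r1*, *Foxo3* and *Insig2* sit within 0.02 of 0.

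Over all 10 members the median log2 fold change for genotype was 0.05, with 8 positive and 2 negative, and the median over all tested genes was -0.00112. These signs were not all stable. Leaving out single mice reversed the sign in some fits for *Pik3r1*, *Trib3* and *Insig2*, counted as positive, and for *Foxo3*, counted as negative. The THRBKO mean was higher at 6 of 6 times for 3 members (*Insr*, *Irs1* and *Foxo1*), where 3.94% of tested genes were higher at every time. It was lower at 6 of 6 for none, where 4.14% of tested genes were lower at every time. At single sampling times 0 of 10 members passed edgeR's test, where from 2 to 5 genes of all those tested passed at each time (0.0278% at ZT2, 0.0111% at ZT6, 0.0167% at ZT10 and ZT14, and 0.0222% at ZT18 and ZT22). From 0 to 2 of the members had an unadjusted p under 0.05 at each time, where 5.43% of tested genes did at ZT2, 4.37% at ZT6, 4.12% at ZT10, 5.34% at ZT14, 5.36% at ZT18 and 4.73% at ZT22.

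*Trib3*, a pseudokinase that binds and inhibits AKT and is induced by fasting and by stress in the endoplasmic reticulum, had the largest daily change of the 10 genes. In THRBWT livers the 3 mice had 17.1, 27.6 and 33.8 CPM at ZT6 and 1.36, 2.04 and 2.81 CPM at ZT18, a ratio of the means of 12.6. In THRBKO livers they had 11.8, 16.4 and 18.7 CPM at ZT6 and 2.46, 3.11 and 3.47 CPM at ZT14, a ratio of 5.20. At ZT10 the order of the genotypes was the opposite of that at ZT6, with 7.50, 9.75 and 11.03 CPM in THRBWT and 9.71, 14.9 and 16.2 CPM in THRBKO livers. The mice of the genotypes overlapped at every sampling time. The log2 fold change was -0.74 at ZT6 (standard error 0.253, unadjusted p = 0.00654, adjusted p = 0.927) and 0.53 at ZT10 (standard error 0.257, unadjusted p = 0.0478, adjusted p = 0.9999).

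In the test of a genotype effect that varies with sampling time, *Trib3* had an unadjusted p of 0.00965, the lowest of the 10, but an adjusted p of 0.9999. That test called 0 of all genes with edgeR and 0 with DESeq2's likelihood ratio test, and 2 of the members (*Trib3* and *Mlxipl*) against 2.69% of all tested genes had an unadjusted p under 0.05. *Trib3* was lower in the dark by a log2 difference of -2.04 in THRBWT (standard error 0.161, adjusted p = 9.0e-10) and of -1.60 in THRBKO livers (standard error 0.158, adjusted p = 2.9e-08). The 2 differences themselves differed by 0.44 (standard error 0.222, unadjusted p = 0.0557, adjusted p = 0.9999). The genes most like *Trib3* over the 36 libraries, by Pearson correlation of log2 CPM among 11908 genes with a mean of at least 50 counts, were *Flcn* (r = 0.932), *Rcl1* (r = 0.926) and *Gabarapl1* (r = 0.919), all of which share the daily sampling with it and peaked from 6.44 to 7.05 h in THRBWT livers. *Flcn* encodes folliculin, a regulator of mTORC1 at the lysosome, and *Gabarapl1* a protein of the autophagosome.

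The bases before the *Trib3* start (GRCm38.p6, chr2:152344061-152344310, minus strand) are given because *Trib3* is a known target of ATF4 and CHOP. None of the 6 motifs, the ATF4-CHOP site TGATGCAA included, was found as an exact match in its window. Near matches were not searched, so the similar tggtgcaa in this window was not counted.
Trib3: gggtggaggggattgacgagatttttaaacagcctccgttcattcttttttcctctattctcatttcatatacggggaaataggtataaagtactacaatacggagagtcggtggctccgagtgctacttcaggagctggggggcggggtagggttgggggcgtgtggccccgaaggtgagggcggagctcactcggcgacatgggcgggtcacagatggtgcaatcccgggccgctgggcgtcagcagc

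*Insig2* retains the SREBP cleavage complex in the endoplasmic reticulum and thus restrains lipid synthesis, and its liver transcript is known to fall with insulin. In THRBWT livers it had 296, 298 and 336 CPM at ZT2 and 45.8, 63.9 and 73.0 CPM at ZT10, a ratio of the means of 5.09. In THRBKO livers the values were 306, 314 and 333 CPM at ZT2 and 58.3, 62.6 and 69.8 CPM at ZT10, a ratio of 5.00. The level rose again through the dark phase, to 285 ± 9.38 CPM at ZT22 in THRBWT and 231 ± 51.5 CPM in THRBKO livers (SD, n = 3). As its high times, ZT22 and ZT2, and its low times, ZT10 and ZT14, lay on both sides of the changes of light, the mean of the dark times was close to that of the light times, with a log2 difference of -0.12 in THRBWT (adjusted p = 0.646) and 0.03 in THRBKO livers (adjusted p = 0.915), although sampling time passed in both (adjusted p = 1.2e-07 and 1.8e-06). The genotype effect was 0.02 (standard error 0.107, 95% confidence interval -0.21 to 0.24). Most like *Insig2* over the 36 libraries were *Clpx* (r = 0.934), *Mad2l2* (r = 0.932) and *Coq8a* (r = 0.925).

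*Insig2* is known for a liver-enriched and a widely used transcript that begin at separate starts, and RefSeq lists 3 starts. The windows before the first and the second are shown because counts summed over the gene, which has 14 annotated transcripts, do not tell which start the daily change came from. The capitals in the second mark TGATGCAA, at position -178 from that start (GRCm38.p6, minus strand, chr1:121332590-121332839 for the first and chr1:121328025-121328274 for the second).
Insig2 start 1: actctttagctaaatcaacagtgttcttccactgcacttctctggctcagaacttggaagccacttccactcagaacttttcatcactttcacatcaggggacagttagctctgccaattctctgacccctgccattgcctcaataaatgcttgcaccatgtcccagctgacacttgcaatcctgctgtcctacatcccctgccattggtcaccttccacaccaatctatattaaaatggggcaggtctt
Insig2 start 2: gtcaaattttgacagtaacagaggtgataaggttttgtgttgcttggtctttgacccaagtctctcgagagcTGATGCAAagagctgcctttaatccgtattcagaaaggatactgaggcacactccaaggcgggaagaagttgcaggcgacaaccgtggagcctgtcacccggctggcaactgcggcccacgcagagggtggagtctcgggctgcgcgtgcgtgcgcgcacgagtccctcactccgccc

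*Mlxipl*, whose product ChREBP turns on glycolytic and lipogenic genes when glucose is high, was the most abundant member and did not pass the test for sampling time in either genotype. Its lowest, median and highest values were 460, 570 and 702 CPM in THRBWT and 492, 591 and 712 CPM in THRBKO livers. The exception to the overlap of genotypes was ZT18, where THRBWT mice had 460, 561 and 581 CPM and THRBKO mice 690, 694 and 712 CPM, with 0.39 as the log2 fold change (standard error 0.123, unadjusted p = 0.00367, adjusted p = 0.711). At that time 10.4% of tested genes were without overlap. The *Mlxipl* effect that varies with sampling time had an unadjusted p of 0.0465 and an adjusted p of 0.9999. The libraries do not keep strand, and 235 of the 5538 exon bases of *Mlxipl* are shared with the antisense gene *Gm43500*, so that reads of the pair cannot be told apart there. Such shared bases also exist for *Irs1* (2822 of 9144), *Irs2* (162 of 6323) and *Foxo1* (674 of 8665), whose partners had at most 119 counts in all libraries together. How reads on shared bases were counted is not stated. A low count of the partner thus does not show that the member lost no reads there, and its level may be understated.

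For the 5 genes that were rhythmic in both genotypes, which was the case for 24.5% of all tested genes, no difference in peak time was detected. The rhythm of *Insr* was lost in THRBKO without letter a and in THRBWT without letter c, and that of *Foxo1* in THRBKO without letter c. *Insig2* peaked near lights on, at 0.41 h (standard error 0.390) in THRBWT and 0.15 h (standard error 0.463) in THRBKO livers. *Trib3* peaked in the middle of the light phase, at 6.59 h (standard error 0.440) and 7.30 h (standard error 0.581), and *Insr* shortly after, at 7.75 h and 7.70 h. *Foxo1*, at 10.97 h and 11.1 h, and *Foxo3*, at 10.7 h and 11.3 h, peaked close to lights off.

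Differences in peak time between genotypes ran from -0.26 h for *Insig2* (95% confidence interval -1.49 to 0.98 h) to 0.71 h for *Trib3* (95% confidence interval -0.78 to 2.20 h). None of the 5 had an unadjusted p under 0.05 for peak time, where 4.53% of the genes rhythmic in both genotypes did. The amplitude of *Trib3* was 1.63 in THRBWT and 1.23 in THRBKO livers on the log2 scale, a difference of -0.40 (standard error 0.265, unadjusted p = 0.146), and that of *Insig2* was 1.24 and 1.04, a difference of -0.20 (standard error 0.179, unadjusted p = 0.285). Of all tested genes, 0.267% had an amplitude in THRBWT of at least that of *Trib3* and 0.85% of at least that of *Insig2*. No member had an unadjusted p under 0.05 for amplitude, where 1.76% of tested genes did, but without the mice of letter a *Trib3* had a difference of -0.63 (unadjusted p = 0.0374). For the mesor, the mean of the fitted curve, 2 of 10 members had an unadjusted p under 0.05, where 11.1% of tested genes did: *Foxo1* with a difference of 0.19 (unadjusted p = 0.00431, adjusted p = 0.179) and *Insr* with 0.10 (unadjusted p = 0.0183, adjusted p = 0.32). Adjusted over all tested genes, 0.695% of genes and 0 of the members passed for the mesor.

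**Figure D3:**
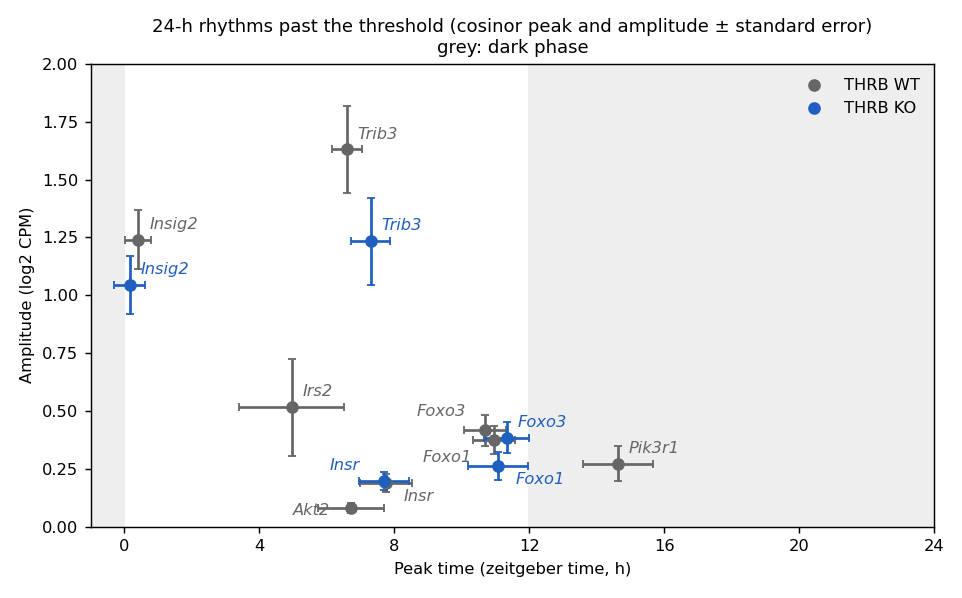
Amplitude on the log2 CPM scale (vertical axis) against peak time in zeitgeber hours (horizontal axis) for the genes with a 24-h rhythm past the threshold, 8 in THRBWT (grey) and 5 in THRBKO (blue) livers, with bars of 1 standard error; shaded areas are dark. *Trib3* and *Insig2* stand above an amplitude of 1 in both genotypes, and *Pik3r1* in THRBWT is alone in the dark phase, at 14.6 h.

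Contrasting the dark with the light times, 3 of 10 members were lower in the dark in THRBWT livers (*Insr*, *Irs2* and *Trib3*) and none was higher, where 11.4% of all tested genes were lower and 10.5% higher (21.9% in all). In THRBKO livers 2 were lower (*Insr* and *Trib3*), and none was higher, where 9.64% of all tested genes were lower and 9.09% higher (18.7% in all). The test of the difference between genotypes called 0 of all genes with edgeR, and 0 of the members had an unadjusted p under 0.05, where 3.06% of tested genes did. In both genotypes, the animal numbers in the labels of dark and of light mice fell into separate runs. What the numbers stand for is not stated. Phase, and with it part of the effect of sampling time, cannot be told apart from any origin that such runs share.

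Other genes of the pathway were read from 3 lists of textbook members. The 2 genes first named from each list passed for sampling time in THRBWT and had the largest dark against light difference there. Their values in THRBWT were thus picked for size, which those in THRBKO were not. Of 40 genes of the core insulin cascade, 38 were tested, and 14 passed for dark against light in THRBWT livers, 2 higher and 12 lower, where 21.9% of all tested genes passed, 10.5% higher and 11.4% lower. *Tsc1*, a brake on mTORC1, was lower in the dark by a log2 difference of -0.48 (adjusted p = 3.9e-05) in THRBWT and -0.36 (adjusted p = 0.00145) in THRBKO livers. *Rictor*, the defining subunit of mTORC2, which phosphorylates AKT, was lower by -0.46 (adjusted p = 5.5e-05) and -0.21 (adjusted p = 0.0475). In THRBKO livers 17 of the 38 passed, 3 higher and 14 lower, where 18.7% of all tested genes passed, 9.09% higher and 9.64% lower. The median log2 difference of the list was -0.09 in THRBWT and -0.07 in THRBKO livers, beside 0.01 over all tested genes in each.

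Of 32 negative regulators of insulin signalling, 14 passed in THRBWT livers, 3 higher and 11 lower, and 10 in THRBKO livers, 1 higher and 9 lower, where 21.9% and 18.7% of all tested genes passed. *Cblb*, a ubiquitin ligase, was lower in the dark by -0.61 (adjusted p = 0.00187) in THRBWT and -0.52 (adjusted p = 0.00708) in THRBKO livers. *Grb14*, an adaptor that inhibits the insulin receptor kinase, was lower by -0.48 (adjusted p = 2.8e-06) and -0.55 (adjusted p = 4.4e-07). In THRBWT livers its 3 mice had 67.9, 69.4 and 71.1 CPM at ZT6 and 33.6, 35.4 and 37.7 CPM at ZT14.

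Among 40 fasting and feeding target genes, the direction was mixed, with 11 higher and 8 lower in the dark in THRBWT livers and 13 higher and 4 lower in THRBKO livers, where 10.5% of all tested genes were higher and 11.4% lower in THRBWT and 9.09% and 9.64% in THRBKO livers. *Thrsp*, a lipogenic gene that responds to carbohydrate and thyroid hormone, was higher by 1.70 (standard error 0.330, adjusted p = 3.6e-04) in THRBWT and 1.95 (standard error 0.333, adjusted p = 1.0e-04) in THRBKO livers. *Ppp1r3g*, a glycogen-targeting subunit of protein phosphatase, was lower by -2.41 (standard error 0.675, adjusted p = 0.0098) in THRBWT livers, at a mean level of only 1.05 CPM, and the value in THRBKO livers was -1.09 (standard error 0.607, adjusted p = 0.233). *Igfbp1*, a FOXO1 target that insulin represses, was the gene most like *Irs2* over the 36 libraries (r = 0.708), followed by *Angel1* (r = 0.684) and *Khnyn* (r = 0.676). Its own dark against light difference was -1.45 (standard error 0.433, adjusted p = 0.0151) in THRBWT and 0.02 (standard error 0.418, adjusted p = 0.985) in THRBKO livers. The test of the change in that difference between genotypes called 0 of all tested genes, so no difference was shown for *Igfbp1* or *Ppp1r3g*. None of the 110 tested genes of the 3 lists passed for genotype with edgeR, for its variation with time or for a dark against light difference that differs between genotypes, and 14 had an unadjusted p under 0.05 for genotype, where 12.1% of all tested genes did. For the variation with time 2 had one, beside 2.69% of all tested genes. For the dark against light change between genotypes 5 had one, beside 3.06% of all tested genes.

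**Figure D4:**
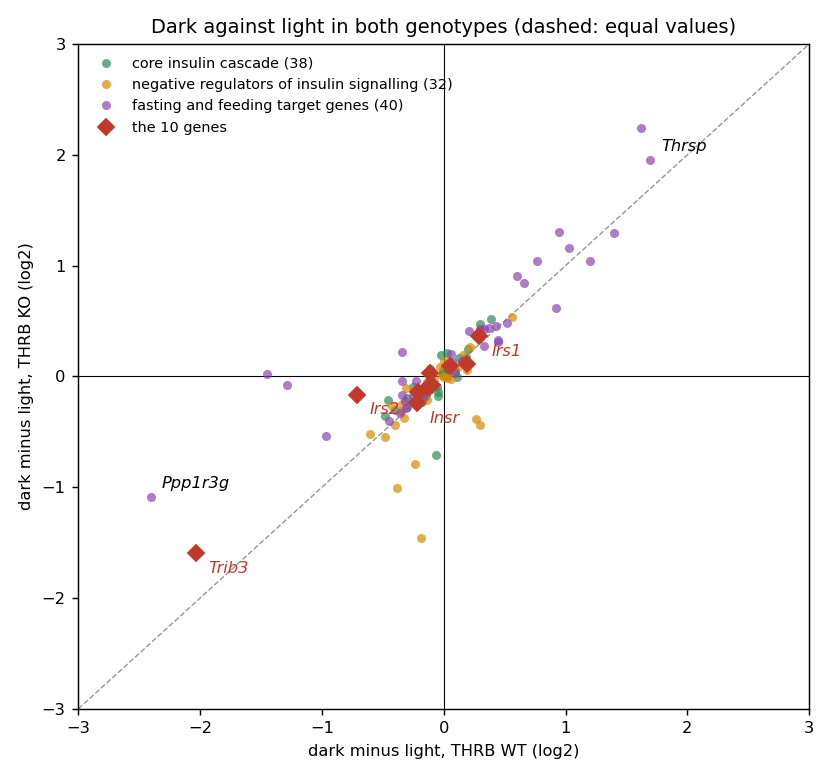
Log2 difference between the dark (ZT14, ZT18, ZT22) and light (ZT2, ZT6, ZT10) times in THRBKO (vertical axis) against THRBWT livers (horizontal axis), for the 10 genes (diamonds) and the tested genes of the 3 pathway lists (circles); the dashed line marks equal values. *Trib3* lies at -2.04 and -1.60, *Irs2* at -0.72 and -0.16, and *Thrsp* at 1.70 and 1.95.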

How the data were processed

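Poly-A RNA of 36 livers was sequenced in paired, non-directional libraries. The authors aligned reads with HISAT2 to GRCm38 (mm10) and deposited whole-number counts per gene from featureCounts (versions not given in the sources used here; the submitters' processing notes also name DESeq2). Coordinates in the file equal GENCODE M21. Count totals were 29063270 to 42530550 per library.

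Genes whose counts summed to 100 or more over the 36 libraries were kept (17994 of 54532), scaled by TMM and tested with the quasi-likelihood test of edgeR 4.0.16 (R 4.3.3) with Benjamini-Hochberg adjustment over all tested genes at 0.05. Models were sampling time plus genotype; 12 groups with contrasts; and a 24-h sine and cosine per genotype. Peak, amplitude and mesor came from a cosinor on log2 CPM (prior count 2), in the manner of CircaCompare, with 30 residual degrees of freedom. Intervals of edgeR estimates used the 24 residual degrees of freedom of the 12-group fit. This was also done for the genotype model, which leaves more, so its intervals are slightly wide for the p-values beside them. Fits were tested on simulated data. p-values measure the spread between these samples; nothing beyond separate mice is stated about the replicates. Replicate letters were not used to pair mice.

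Alternatives were DESeq2 1.42.0 (likelihood ratio test and size factors), other filters, robust estimation, pooled times, a replicate block, and leaving out letters or mice. The members and lists were chosen with earlier results of these data known. Named genes were the members, list genes past the threshold for genotype (none), the 2 genes per list past the threshold for sampling time with the largest dark against light difference in THRBWT, and the 3 most correlated genes of the 3 members with the largest amplitude; *Thrb*, *Ins1*, *Ins2*, the values of *Igfbp1* by phase and the antisense partner were added after their values were seen. Marker lists were read as sums of CPM. Promoter sequences are from RefSeq (GRCm38.p6), searched from 250 bases before to 50 after each start on both strands.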

Additional observations from a re-analysis of the deposited data

Results flagged for a closer look

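The genotype effect on *Trib3* differed between sampling times by the interaction test at an unadjusted p of 0.00965 (adjusted p = 0.9999 over all tested genes). The log2 fold change was -0.74 at ZT6 and 0.53 at ZT10, with overlapping mice at both times. For *Mlxipl* the same test gave an unadjusted p of 0.0465 (adjusted p = 0.9999), with a log2 fold change of 0.39 at ZT18 and of -0.20 at ZT14. Of all tested genes, 2.69% had an unadjusted p under 0.05 in that test.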

How the results depend on the processing

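*Foxo1* was past the threshold for genotype with DESeq2's size factors, no filter, filterByExpr, robust estimation, DESeq2's likelihood ratio test and the replicate block, while 0 members were with sampling times pooled, 1 whichever single mouse was left out and 0 whichever letter was. Dropping a letter leaves 2 mice per group. Leaving out samples gave 2 to 5 members for dark against light in THRBWT (5 without the ZT6 mouse a, when *Akt2* and *Foxo1* passed too), 1 to 3 in THRBKO (3 without the ZT10 mouse b, when *Irs1* passed; 1 without letter a, when *Insr* had an adjusted p of 0.0549), 5 to 6 with a rhythm in THRBWT (5 without letter b and without letter c, against 8), and 1 to 2 with a difference in mesor, amplitude or peak time (1 without letter c). Without letter a, *Insr* had an unadjusted p of 0.0648 for the mesor, and *Trib3* an amplitude difference of -0.63 (unadjusted p = 0.0374). With pooled times, *Trib3* had a log2 fold change for genotype of -0.18 and *Insig2* of -0.0484, and with the replicate block *Insig2* had -0.00029. When samples were left out, the genotype estimate ran from -0.0618 to 0.40 for *Irs2*, -0.022 to 0.0311 for *Pik3r1*, -0.0301 to 0.0197 for *Foxo3*, -0.0662 to 0.13 for *Trib3* and -0.0591 to 0.0689 for *Insig2*. The dark against light estimate ran from -0.34 to 0.0742 for *Insig2* and -0.0299 to 0.10 for *Mlxipl* in THRBWT, and from -0.12 to 0.13 for *Insig2* and -0.0296 to 0.24 for *Pik3r1* in THRBKO; none of these was past the threshold. Robust estimation put *Irs2* in THRBWT at an adjusted p of 0.0679. The cause of these changes was not tested. Over all genes, 171 were called for genotype, against 306 with DESeq2's likelihood ratio test, 65 with pooled times and 387 with the replicate block. The block pairs mice of the same time and letter; pair correlations ran from -0.04 to 0.22 and only 9 of 18 were over 0.1. As pairing required every pair to be over 0.1, the letters were not taken to pair mice, although 15 of 18 pairs correlated best with their own letter, and animal numbers in the labels are close within most pairs, both hints of a shared origin that no label states. The numbers of dark and light mice also lie in separate runs, so phase cannot be told apart from any origin shared within a run. The block changed no member's call for genotype, its variation with time, genotype at single times or the dark against light change between genotypes; tests within a genotype were not fitted with it. Without a filter, 7 members passed for sampling time in THRBWT and 6 in THRBKO livers, and 7 for a rhythm in THRBWT, where *Akt2* was lost. *Trib3* and *Irs1* had the lowest counts, down to 50 and 74 in a library, while *Irs2* had the largest standard error for genotype (0.199).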
